A study of Mus musculus with 6 samples.

Results

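Untreated adipocytes of the mouse line 3T3-L1 were set against untreated fibroblasts of the same line. 3T3-L1 is a single clone of embryonic mouse fibroblasts that is committed to become fat cells once confluent cultures receive a hormone mixture. The comparison rests on 2 of the 6 arrays in the series, 1 per state, so no difference between them has a replicate check and none could be tested. The adipocyte culture was taken to confluence and induced for 3 days with dexamethasone at 1 µmol/l, insulin at 1 µg/ml and IBMX at 115 µg/ml. It was then kept for 3 days with the same insulin alone, and both of its media held 10% fetal bovine serum. Dexamethasone is a synthetic glucocorticoid, and IBMX is a phosphodiesterase inhibitor that raises cyclic AMP. The fibroblast culture grew in 10% calf serum without these agents, and its time in culture was not given in the sources used here. State, serum, induction agents and time in culture therefore cannot be told apart. The other 4 arrays came from adipocytes and fibroblasts given a purine compound at 0.5 mM for 3 days, either adenine or AICAR, and in adipocytes these were the days of induction. A label on cell type read fibroblasts for all 6 arrays and a second label told the adipocytes apart, while the title of the untreated adipocytes named no compound and another label gave them as the control.

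Expression was the deposited log2 signal of a whole-transcript array, on which a difference of 1 is 2-fold. Each gene was represented by 1 probe set, the brightest over the 6 arrays among those with a single gene symbol. Of 19938 genes, 9969 had a mean of at least 5.87, the median of all gene means, and entered the counts. Differences are adipocytes minus fibroblasts, and where 3 levels are given for a state they stand in the order control, adenine and AICAR. Array medians lay between 5.41 and 5.49. In bulk RNA, fewer cells expressing a gene and less of its RNA per cell cannot be told apart.

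When preadipocytes differentiate, early factors of the C/EBP family switch on PPARγ and C/EBPα, which maintain each other and drive the genes of the fat cell. The mature cell takes up or makes fatty acids, joins them to glycerol phosphate as triglyceride, stores them in a protein-coated droplet, and releases them by lipolysis under hormonal control. It also secretes hormones such as adiponectin. Meanwhile the fibroblast loses stress fibres and surrounds itself with a basement membrane.

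Marker genes fixed for this comparison are given first. They were chosen with earlier results of these data known, so their separation is no independent check of the labelled identities. Cd36, a fatty acid transporter (chr5:17781690-17888959 on GRCm38.p6), had levels of 10.91, 11.45 and 10.97 in adipocytes, against 3.98, 4.0 and 4.47 in fibroblasts. Adipoq, which encodes adiponectin (chr16:23146536-23157968), stood at 10.64, 12.18 and 10.79 in adipocytes, against 4.42, 4.45 and 4.05 in fibroblasts. The lipid droplet protein gene Cidec (chr6:113424634-113435760) stood at 10.82, 12.13 and 10.62 in adipocytes, against 5.26, 5.61 and 5.58 in fibroblasts. For these adipocyte markers every adipocyte array lay above every fibroblast array, by more than 5 log2 units between the nearest 2 arrays. Timp3, an inhibitor of metalloproteinases in the matrix (chr10:86300412-86349505), had levels of 4.8, 4.29 and 4.95 in adipocytes, against 8.92, 8.71 and 7.11 in fibroblasts. The interferon-induced gene Ifit3 (chr19:34583119-34588982) stood at 4.82, 4.88 and 6.6 in adipocytes, against 10.44, 10.34 and 10.93 in fibroblasts. For both of these markers every adipocyte array was the lower. Pdgfra, a receptor found on preadipocytes, was bright in both control cultures, at 11.51 in adipocytes against 11.07 in fibroblasts, and so was the collagen gene Col1a1, at 11.4 in adipocytes against 11.9 in fibroblasts. The adipocyte array therefore carried the fat cell markers together with high levels of Pdgfra and Col1a1. Most other markers of stromal progenitors were lower in control adipocytes. Of 11 preadipocyte and stromal progenitor markers above the filter, 6 were at least 2-fold lower in control adipocytes and 3 were above 0.

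Markers of other cell types were checked next. All 6 endothelial and all 7 epithelial markers lay below the filter. Of 9 leukocyte markers 6 lay below it, and the defining ones were dim on both arrays, with Ptprc at 4.24 in adipocytes against 4.24 in fibroblasts, the macrophage gene Adgre1 at 3.81 in adipocytes against 3.58 in fibroblasts and Itgam at 4.09 in adipocytes against 3.94 in fibroblasts. Lyz2, the lysozyme of myeloid cells, was the brightest of the 3 above it at 5.32 in adipocytes against 7.99 in fibroblasts, and the others were Cd14 at 5.6 in adipocytes against 6.32 in fibroblasts and Cd68 at 5.6 in adipocytes against 5.95 in fibroblasts. Of the 7 skeletal muscle markers and of the 7 bone and cartilage markers 3 each passed the filter, and 0 of either differed by 2-fold. The brightest bone and cartilage marker stood at 8.68 in control adipocytes and 9.04 in control fibroblasts. Lyz2 was the 1 leukocyte marker of the 9 that differed by 2-fold in the control pair, and their median difference was 0.03. The summed linear signal of the 9 leukocyte markers was 243.1 to 334.8 in the 3 adipocyte arrays, against 533.1 to 566.5 in the 3 fibroblast arrays. Its part in the immune differences described further on was not tested.

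Most genes differed little. Of the 9969 genes, 287 (2.88%) were at least 2-fold higher in control adipocytes and 426 (4.27%) at least 2-fold lower, while 9256 lay within 2-fold. The median difference was 0.02, the 5th percentile -0.91 and the 95th 0.75, and 51.9% of differences were above 0 and 48.1% below it. The largest differences leaned to the adipocyte side. At 4-fold the counts were 74 higher and 103 lower, at 8-fold 28 and 21, at 16-fold 12 and 8, and at 32-fold 6 and 2. Many rested on a dim partner, since 53 of the 287 higher genes were below the filter level in control fibroblasts and 107 of the 426 lower genes were below it in control adipocytes. The folds of such genes depend on the background correction.

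**Figure D1:**
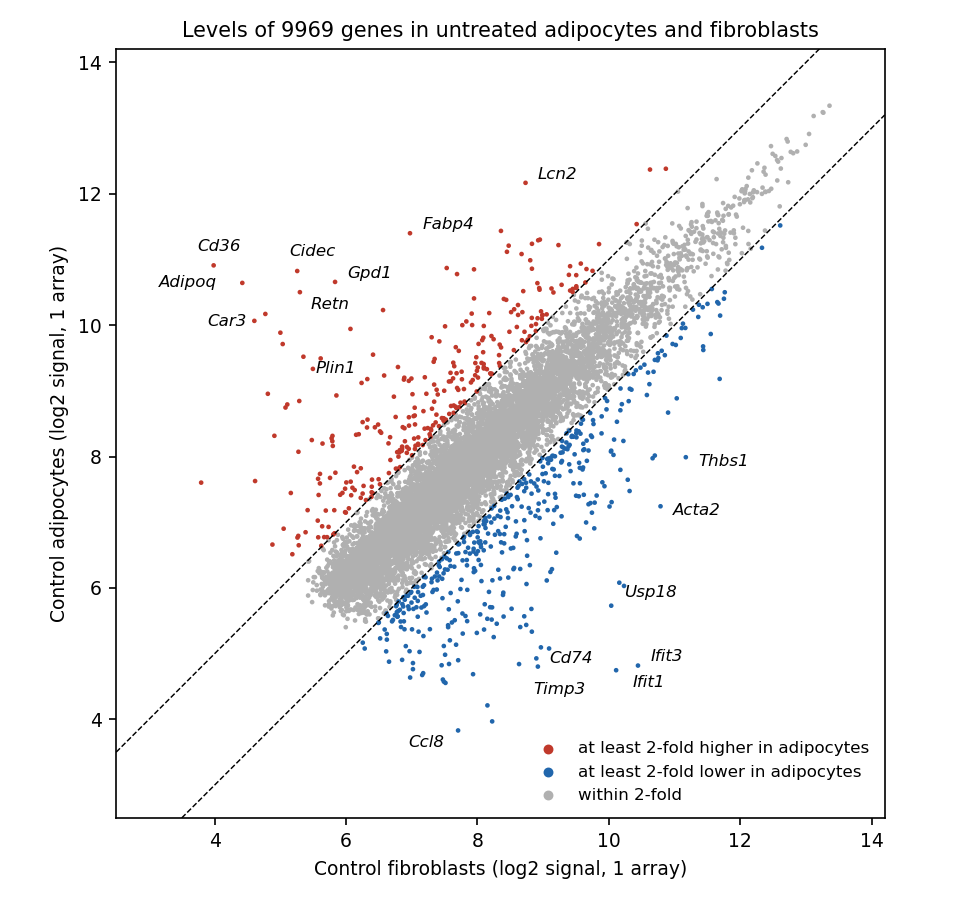
Log2 signal of the 9969 genes in control adipocytes (vertical) against control fibroblasts (horizontal), 1 array each, with dashed lines at a 2-fold difference. The 287 red genes lie above the band and the 426 blue genes lie beneath it, and Cd36 and Ifit3 are the farthest from it on either side.

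The edges of the count were crowded. Ifngr1 (1.004), Mmgt1 (1.002) and Trib1 (1.001) were the last genes inside the 2-fold line, and Mir99ahg (0.998), Tarbp1 (0.994) and Ndufc2 (0.992) the first outside it. On the lower side Pdk3 (-1.006), Ppt1 (-1.003) and Gm5617 (-1.002) were just inside, and Cacng7 (-0.999), Synj2 (-0.999) and Zfp827 (-0.997) just outside. At the expression filter, Grm2, Spdef and Hs3st4 were the dimmest genes kept, and Gm10364, Gbx2 and Ankrd1 the brightest left out. Ankrd1, a target of the YAP coactivator, had a difference of -2.48 that the counts do not include.

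Within an array, 582 genes had 2 or more bright probe sets, 1571 probe sets in all. Their differences varied around the gene's mean with a pooled SD of 0.20, which measures agreement of probes and not of cultures. Among these genes 17 had a probe set at least 2-fold higher and 8 had every one so. On the lower side the counts were 19 and 8, and 0 genes had probe sets past 2-fold in both directions.

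The same change of state was also seen on arrays that share nothing with the control pair, although these are other conditions and not replicates. Adipocytes given adenine had 673 genes at least 2-fold higher and 844 lower than adenine fibroblasts (6.75% and 8.47%), and 53.2% of all differences in that pair were above 0 and 46.8% below it. Adipocytes given AICAR had 591 higher and 459 lower than AICAR fibroblasts (5.93% and 4.6%), with 50.2% above 0 and 49.8% below it. Of the 287 genes higher in the control pair, 231 were also higher in the adenine pair, which is 80.5% of the control list and 34.3% of the adenine list. With AICAR the overlap was 190 genes, 66.2% of the control list and 32.1% of the AICAR list. Of the 426 lower genes, 351 were lower in the adenine pair (82.4% and 41.6%) and 187 in the AICAR pair (43.9% and 40.7%). All 3 pairs shared 163 higher and 171 lower genes, and 29 higher and 59 lower genes passed 2-fold in the control pair alone. Across genes, which are not independent replicates, the control differences correlated with the adenine differences at r = 0.82 and with the AICAR differences at r = 0.60.

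**Figure D2:**
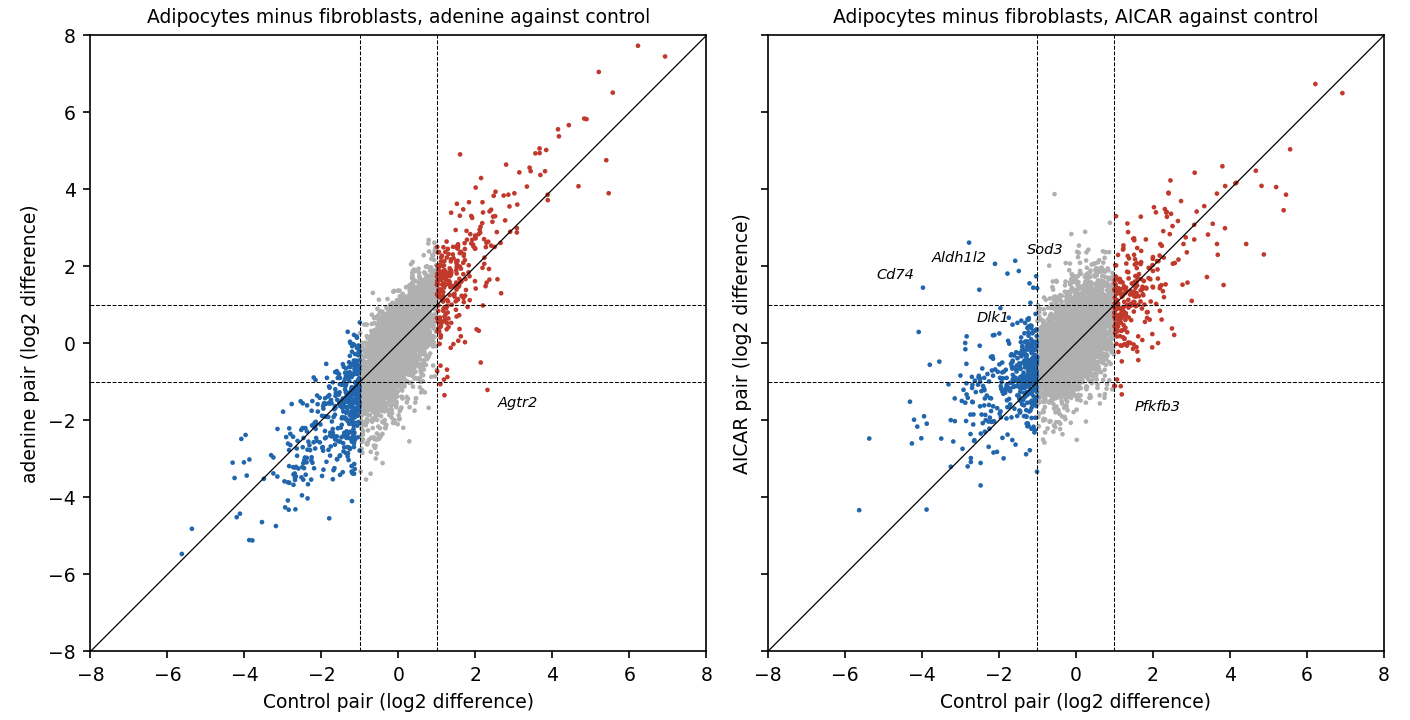
Log2 difference of adipocytes minus fibroblasts for each of the 9969 genes, in the adenine pair (left panel, vertical) and the AICAR pair (right panel, vertical) against the control pair (horizontal), with dashed lines at 2-fold and a solid line of equality. The points follow the line more closely with adenine (r = 0.82) than with AICAR (r = 0.60), and the named genes passed 2-fold in opposite directions.

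With all 3 arrays of each state, 250 of the 287 higher genes had every adipocyte array above every fibroblast array and 352 of the 426 lower genes had every one below. Over all genes 22.1% and 19.9% did so. The 287 and 426 genes were chosen on the control arrays, which are among these 6, so nothing is read from the excess.

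**Figure D3:**
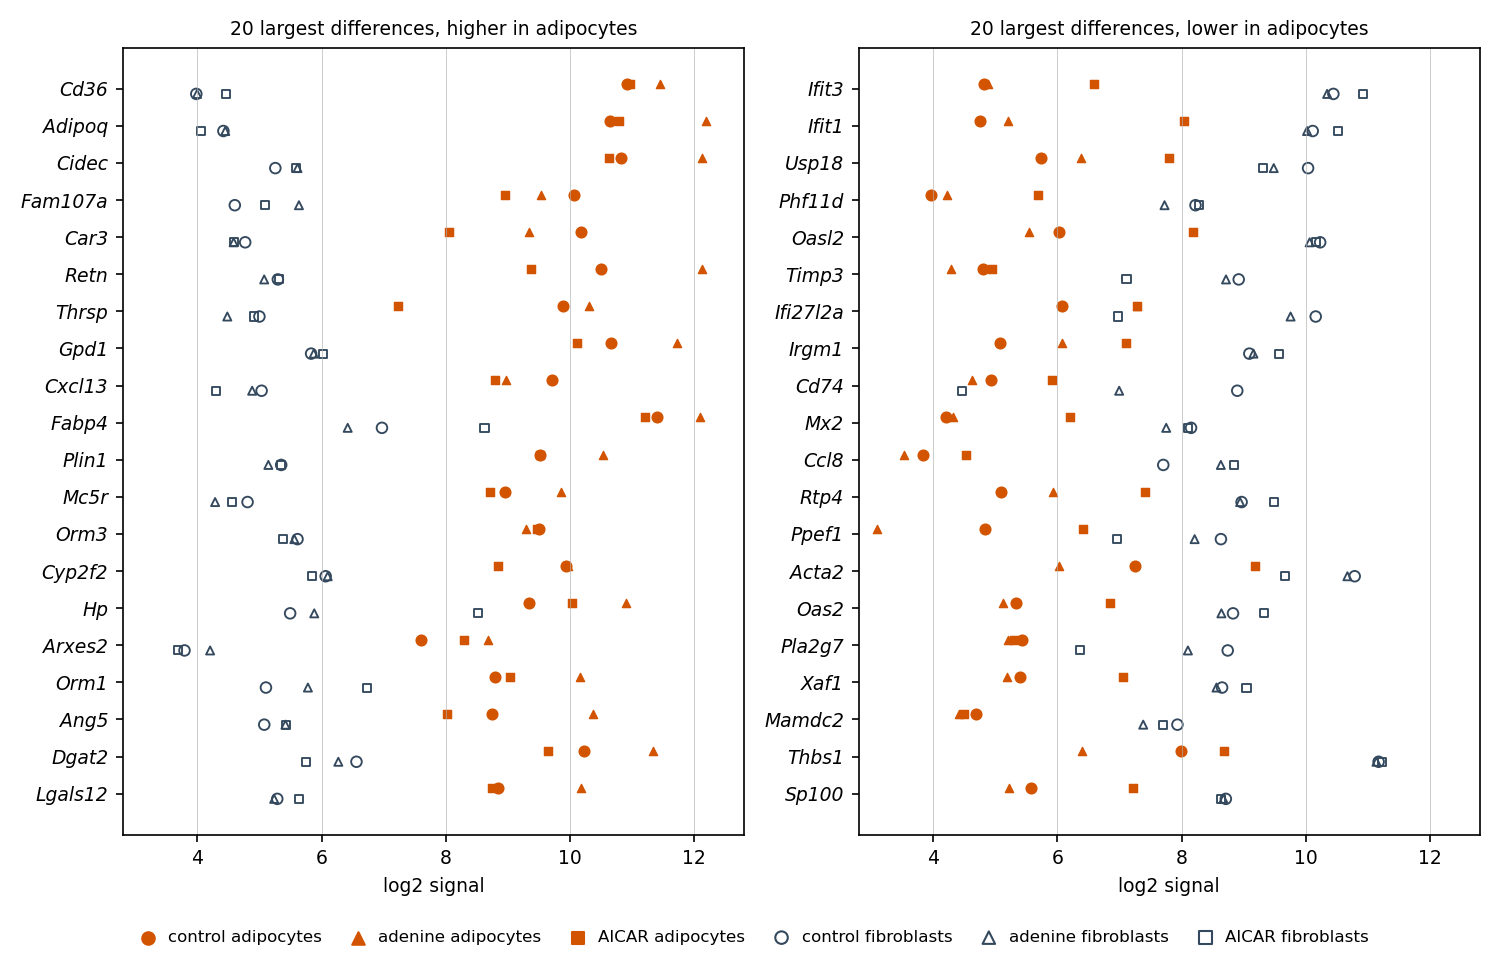
Log2 signal on each of the 6 arrays for the 20 genes with the largest differences each way in the control pair, adipocytes as filled and fibroblasts as open symbols. For most genes the filled and open symbols form separate groups, while for Cd74 the AICAR fibroblasts lie lower than every adipocyte array.

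The transcription factors of adipogenesis came next. Of 18 measured above the filter, 7 were at least 2-fold higher and 0 were lower by as much, and the median difference was 0.67. Cebpa, which encodes C/EBPα, had levels of 7.75, 9.0 and 7.61 in adipocytes, against 5.84, 5.74 and 5.66 in fibroblasts. Pparg, the nuclear receptor at the head of the programme, had levels of 9.81, 10.8 and 9.95 in adipocytes, against 8.09, 8.19 and 9.04 in fibroblasts. Both were higher in control adipocytes (1.92 and 1.72), but Pparg was already well above the filter in fibroblasts and Cebpa was at the filter level there. The early factors Cebpd and Cebpb were higher by 1.2 and 0.91, Rxra, the partner of PPARγ, by 1.19, the lipogenic factor Srebf1 by 1.83, Stat5a by 1.13 and Klf5 by 1.11. Ebf1 (0.02), which specifies the lineage, and the glucocorticoid receptor Nr3c1 (0.0) had almost equal levels. Klf4 (-0.45) and Zfp467 (-0.48) were the 2 members with negative differences.

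Factors known to restrain adipogenesis centred on -0.16, with 4 of 17 genes above 0 and 2 lower by at least 2-fold. Ddit3, the CHOP factor that blocks C/EBP dimers, stood at 7.9, 8.56 and 8.33 in adipocytes, against 9.55, 9.3 and 8.8 in fibroblasts, a difference of -1.64. Dlk1, the preadipocyte factor Pref-1, stood at 10.32, 8.99 and 10.11 in adipocytes, against 11.5, 11.4 and 9.05 in fibroblasts. Dlk1 stayed among the bright genes in control adipocytes, and its AICAR pair ran the opposite way. Snai2 (-0.85), Klf7 (-0.68), Hes1 (-0.65) and Twist1 (-0.52) were lower within 2-fold. Foxo1, a target of insulin signalling that represses early differentiation, was higher by 0.88.

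Among the genes of fatty acid uptake, 11 of 12 were above 0, and 3 were at least 2-fold higher (median 0.54). Besides Cd36, these were the fatty acid binding proteins Fabp4 and Fabp5. Fabp4 had levels of 11.4, 12.09 and 11.21 in adipocytes, against 6.97, 6.42 and 8.62 in fibroblasts, and Fabp5 had levels of 11.21, 12.16 and 11.52 in adipocytes, against 8.48, 8.32 and 7.82 in fibroblasts. Fabp4 was thus higher by 4.43 and Fabp5, the epidermal form, by 2.73. Lipoprotein lipase (Lpl), an early gene of the lineage that frees fatty acids from lipoproteins, was bright in both states, at 12.22 in adipocytes against 11.64 in fibroblasts. The long-chain acyl-CoA synthetase Acsl5 was the lower member, at -0.53.

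The proteins that coat the lipid droplet and empty it were mostly higher, with 10 of 14 genes at least 2-fold higher and a median of 1.8. Plin1, the coat protein that guards the droplet against lipases, had levels of 9.52, 10.52 and 9.52 in adipocytes, against 5.35, 5.14 and 5.34 in fibroblasts. Its paralogues did not share its size of difference. Plin4 was higher by 1.41, Plin2, the coat protein of droplets in many cell types, was almost equal on both arrays, at 10.34 in adipocytes against 10.38 in fibroblasts, and Plin3 was lower (-0.58). Several steps of lipolysis were higher. Pnpla2, which encodes adipose triglyceride lipase, was higher by 2.48, its activator Abhd5 by 1.69, its inhibitor G0s2 by 1.92 and the hormone-sensitive lipase Lipe by 3.14. Pde3b, the phosphodiesterase through which insulin restrains lipolysis, was higher by 2.44, and Prkar2b, a regulatory subunit of the cyclic AMP kinase, by 1.36. Fitm2, which helps lipid leave the endoplasmic reticulum, was higher by 1.94.

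Triglyceride assembly was higher along its main path, with 6 of 14 genes past 2-fold, 12 above 0 and a median of 0.92. Gpd1, which makes glycerol phosphate, had levels of 10.66, 11.72 and 10.12 in adipocytes, against 5.83, 5.87 and 6.02 in fibroblasts. Dgat2, which adds the last acyl chain, had levels of 10.23, 11.34 and 9.65 in adipocytes, against 6.56, 6.27 and 5.76 in fibroblasts. For both genes all 3 adipocyte cultures exceeded all 3 fibroblast cultures. Between these steps, the acyltransferases Gpat3 and Agpat2 were higher by 2.15 and 2.37, the phosphatidate phosphatase Lpin1 by 2.88 and the other terminal enzyme, Dgat1, by 2.2. The paralogues Lpin2 (-0.33) and Agpat1 (-0.24) were slightly lower.

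Fatty acid synthesis was split. Thrsp, a lipogenic regulator, had levels of 9.89, 10.31 and 7.23 in adipocytes, against 5.0, 4.48 and 4.91 in fibroblasts, and its AICAR adipocytes were the lowest of the adipocyte arrays. Fatty acid synthase (Fasn) was higher by 2.0 and the desaturase Scd1 by 1.99, and these 3 were the members past 2-fold on the higher side. The other measured members on that side were closer to 0, with the carboxylase Acaca at 0.43, ATP citrate lyase (Acly) at 0.35 and Scd2 at 0.24. The enzymes of polyunsaturated fatty acids were lower instead, with Fads1 at -0.81, Fads2 at -0.83 and Fads3 at -1.23, as was the elongase Elovl6 at -0.85. The median of the 18 genes was 0.18. The 21 cholesterol genes had a median of 0.11, and the demethylase Cyp51 (1.62) was their single member past 2-fold, with the desaturase Sc5d at the other end (-0.96).

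A short DNA motif of the C/EBP family, TTGCNNAA on either strand, was looked up in the RefSeq promoters of these genes on GRCm38.p6, from 250 bases before to 50 bases after each gene start. It was held by 10.8% of all 32851 promoter windows, by 7.83% of the windows of the genes above the filter, and by 9 of 56 windows (16.1%) of the genes for uptake, droplets, triglyceride and secreted factors. Genes on the lower side held it as well. It was in 5 of 47 windows (10.6%) of the interferon-stimulated genes and GTPases above the filter. Among the 20 genes with the largest negative differences it was in 2 of 13 windows (15.4%), both of Sp100. Of the 20 genes with the largest positive differences, 12 had 15 windows in the table, and 4 of these held the motif, in Cidec, Plin1, Cxcl13 and Orm3. Cidec and Plin1 are printed here because they encode droplet proteins with 2 of the largest differences, with the motif in capitals and both read on the gene's own strand, which is the minus strand. The Cidec window (chr6:113434715-113435014) belongs to the downstream of its 2 starts and has a match 198 bases before the start. The Plin1 window (chr7:79732727-79733026) belongs to a start inside the annotated span of the gene and has matches beginning 187 and 58 bases before the start. A match describes letters and does not show binding.
Cidec: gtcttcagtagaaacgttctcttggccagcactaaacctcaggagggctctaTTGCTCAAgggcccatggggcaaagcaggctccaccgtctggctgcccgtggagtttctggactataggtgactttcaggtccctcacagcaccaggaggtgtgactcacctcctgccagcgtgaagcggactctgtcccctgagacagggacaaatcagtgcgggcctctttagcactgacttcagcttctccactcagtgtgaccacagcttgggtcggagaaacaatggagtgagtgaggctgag
Plin1: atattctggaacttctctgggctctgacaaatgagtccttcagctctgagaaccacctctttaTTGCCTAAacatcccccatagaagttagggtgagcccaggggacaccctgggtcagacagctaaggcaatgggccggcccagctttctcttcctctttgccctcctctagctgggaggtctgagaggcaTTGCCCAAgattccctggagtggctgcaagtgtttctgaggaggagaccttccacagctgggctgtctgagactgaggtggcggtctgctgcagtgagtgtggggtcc

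Secreted proteins of fat cells had a median of 2.11 above the filter and of 0.91 over all 24 with a probe set, and 11 of the 16 genes above the filter were past 2-fold on the higher side and 1 on the lower. Resistin (Retn) had levels of 10.5, 12.13 and 9.38 in adipocytes, against 5.3, 5.08 and 5.31 in fibroblasts. The acute-phase proteins haptoglobin (Hp) and orosomucoid 1 (Orm1) were higher by 3.84 and 3.69, and lipocalin 2 (Lcn2) and serum amyloid Saa3 by 3.43 and 2.65. Hp was not confined to adipocytes, with levels of 9.33, 10.91 and 10.03 in adipocytes, against 5.49, 5.88 and 8.51 in fibroblasts, and AICAR fibroblasts stood well above the other fibroblasts. Angiotensinogen (Agt) was higher by 3.08, the lipase inhibitor Angptl4 by 1.69, Nampt by 1.17 and chemerin (Rarres2) by 1.01. Adrenomedullin (Adm), a vasodilator peptide, was the lower member at -2.26. Leptin (Lep) stayed below the filter on both arrays, at 4.65 in adipocytes against 4.36 in fibroblasts, and so did Rbp4 at 4.29 in adipocytes against 4.3 in fibroblasts.

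Several other genes at the top of the ranking have less familiar places in fat cells. Car3, a cytosolic carbonic anhydrase, had levels of 10.17, 9.34 and 8.05 in adipocytes, against 4.77, 4.58 and 4.59 in fibroblasts. Fam107a, an actin-associated protein, had levels of 10.07, 9.54 and 8.95 in adipocytes, against 4.6, 5.64 and 5.09 in fibroblasts, so that control adipocytes were the highest array for both. The chemokine Cxcl13, which attracts B cells, was higher by 4.68, the cytochrome P450 gene Cyp2f2 by 3.88, Arxes2 by 3.81, the angiogenin-family ribonuclease Ang5 by 3.67 and the droplet-associated galectin Lgals12 by 3.56. Among the carbonic anhydrases, mitochondrial Car5b was also higher, by 2.41, and Car13 by 1.24.

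Of 27 hormone receptors 12 passed the filter, which 9969 of all 19938 genes passed. Of these 12, 4 were at least 2-fold higher, 0 were lower by as much and 5 were below 0. Their median was 0.51 in the control pair, -0.58 in the adenine pair and -0.20 in the AICAR pair. Mc5r, a melanocortin receptor, stood at 8.96, 9.85 and 8.72 in adipocytes, against 4.81, 4.29 and 4.56 in fibroblasts, and its relative Mc2r, the corticotropin receptor, had a mean below the filter, at 5.89 in adipocytes against 3.46 in fibroblasts. The adiponectin receptor Adipor2 was higher by 1.68 while Adipor1 was at -0.18. The angiotensin receptor Agtr2 stood at 9.2, 6.46 and 7.91 in adipocytes, against 6.89, 7.67 and 4.42 in fibroblasts. Its control adipocytes were the highest array, but its adenine adipocytes lay below the control and adenine fibroblasts, so the states overlapped.

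Insulin signalling had a median of 0.01 over 19 genes, and 2 passed 2-fold on the higher side and 1 on the lower. On the higher side were Pde3b and Tbc1d4 (1.53), the AS160 protein that holds glucose transporters inside the cell. The insulin receptor Insr was at 0.4, Irs2 at 0.61 and Irs1 at -0.38. Grb14, an adaptor that inhibits the insulin receptor, was at 6.26 in adipocytes against 7.96 in fibroblasts, a difference of -1.71. The insulin-responsive transporter Slc2a4 (GLUT4) had a mean below the filter, at 6.04 in adipocytes against 4.99 in fibroblasts, while the general transporter Slc2a1 was bright in both, at 9.61 in adipocytes against 10.01 in fibroblasts.

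Mitochondrial lists divided by pathway. Those of fuel oxidation had most members above 0. In fatty acid oxidation 18 of 19 genes were above 0, with a median of 0.76, and the medium-chain dehydrogenase Acadm led at 10.52, 10.76 and 10.42 in adipocytes, against 8.7, 8.91 and 7.72 in fibroblasts. Cpt1a, which passes fatty acids into mitochondria, was the exception at -0.57. In the pyruvate and citrate list 27 of 28 were above 0, with a median of 0.65. Its leading gene was Pcx, which encodes pyruvate carboxylase, at 10.78, 11.39 and 10.79 in adipocytes, against 7.69, 7.78 and 6.35 in fibroblasts. Idh3a was higher by 1.59 and the pyruvate dehydrogenase subunits Pdha1 and Pdhb by 1.06 and 1.11, and the kinase Pdk3, which inhibits that enzyme, stood at -1.01. In the breakdown of branched-chain amino acids 19 of 20 were above 0, with a median of 0.66. Here the paralogues of the first step were opposed. The mitochondrial aminotransferase Bcat2 was higher by 1.53 and the cytosolic Bcat1 stood at -1.74, while Aldh6a1, further down the valine path, was higher by 2.0.

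The lists of the respiratory chain lay closer to 0 in the control pair. Of 34 subunit genes of complex I, 17 were above 0 and 0 passed 2-fold, with a median of 0.02. The ATP synthase genes had a median of 0.05 (10 of 16 above 0), and complexes III and IV with cytochrome c had one of 0.17 (12 of 19 above 0). Cycs, which encodes cytochrome c, was the exception, higher by 1.12. Within complex I, Ndufs1 (0.76) and Ndufc2 (0.99) were at one end and the small subunits Ndufa3 (-0.45) and Ndufs5 (-0.42) at the other. In the adenine pair 31 of the 34 complex I genes were above 0 with a median of 0.77, and in the AICAR pair 33 were, with a median of 0.83. Medians for ATP synthase were 0.65 and 0.69 in the same pairs. The fuel oxidation lists also had larger medians there, with those for fatty acid oxidation of 1.24 with adenine and 1.17 with AICAR. The difference between pairs was not tested.

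**Figure D4:**
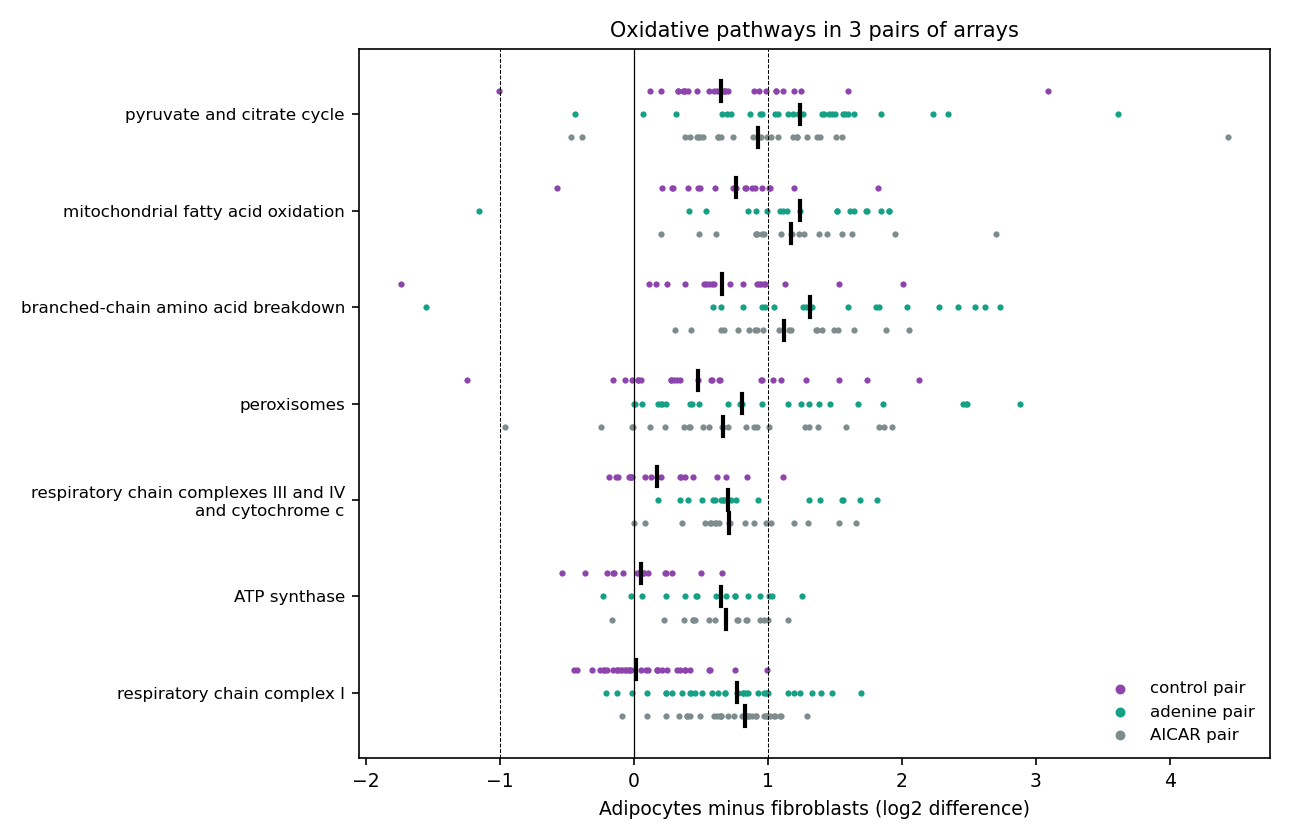
Log2 difference of adipocytes minus fibroblasts for each gene (points) and its list median (black bars) in the control, adenine and AICAR pairs, by list of oxidative genes. The medians of fatty acid oxidation, pyruvate and citrate, and branched-chain amino acids lie above 0 in every pair, whereas complex I (0.02) and ATP synthase (0.05) are near 0 in the control pair and between 0.65 and 0.83 in the other pairs.

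Peroxisomes, which shorten very long fatty acids, had 6 of 25 genes at least 2-fold higher and a median of 0.48. Pex11a, which promotes peroxisome division, was higher by 2.12, catalase (Cat) by 1.74, Gnpat, which begins ether lipid synthesis, by 1.53 and carnitine acetyltransferase (Crat) by 1.28. Phyh, which starts the breakdown of phytanic acid, was the 1 member at least 2-fold lower, at -1.25, and 4 of the 25 were below 0. Glycolysis and the pentose phosphate path had a median of 0.50 over 21 genes, with the lactate transporter Slc16a1 (1.56), transaldolase Taldo1 (1.55), Pfkfb3 (1.19) and hexokinase Hk2 (1.07) past 2-fold. Hk1, the other hexokinase on the list, was at -0.16.

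Genes known to respond to glucocorticoids or cyclic AMP had 11 of 22 members at least 2-fold higher, 0 lower by as much and a median of 1.00. The list shares members with those of secreted and adipogenic factors above, among them Lcn2, Angptl4 and Cebpd. Its median was 0.96 in the adenine pair and 0.19 in the AICAR pair, where 10 of 22 were below 0. Fkbp5, a chaperone of the glucocorticoid receptor, had levels of 10.85, 10.74 and 10.02 in adipocytes, against 7.95, 7.84 and 8.44 in fibroblasts. Glutamine synthetase (Glul) had levels of 10.87, 11.48 and 10.92 in adipocytes, against 7.53, 7.4 and 7.35 in fibroblasts. The glucocorticoid-induced leucine zipper gene Tsc22d3 was higher by 2.01, Errfi1 by 2.18, and the cyclic AMP phosphodiesterases Pde4b and Pde4d by 1.85 and 1.26. Immediate early members were not higher, with Nr4a1 at -0.08 and Nr4a2 at -0.56, and the metallothioneins Mt1 (-0.55) and Mt2 (-0.56) were slightly lower. Dexamethasone and IBMX had been given to the adipocyte culture and had been withdrawn 3 days earlier.

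Genes of the contractile cytoskeleton were lower in adipocytes. Of 22 measured, 6 were at least 2-fold lower, 3 were above 0 and the median was -0.48. Smooth muscle actin (Acta2) had levels of 7.24, 6.03 and 9.19 in adipocytes, against 10.79, 10.67 and 9.66 in fibroblasts, and AICAR adipocytes approached the fibroblasts without overlap. Tropomyosin Tpm1 stood at -1.6, calponin Cnn2 at -1.31, the myosin light chain Myl9 at -1.22, filamin Flnc at -1.21 and the focal adhesion protein Zyx at -1.11. Nonmuscle Myh10 (0.33) and the factor Srf itself (0.21) lay slightly above 0. The CArG box, the motif of Srf, was present in 6 of 24 promoter windows of these genes (25%). It was in 1.63% of all windows and in 1.34% of the windows of genes above the filter. The window of Acta2, which belongs to a start inside the annotated span of the gene, did not hold it. A match describes letters and does not show binding, and its relation to the differences was not tested.

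Matrix genes differed by class. Fibrillar collagens and their modifying enzymes had a median of -0.12, and the major chains Col1a1 (-0.51), Col1a2 (-0.39) and Col3a1 (-0.12) lay within 2-fold. Col8a1 was lower at 5.3 in adipocytes against 7.78 in fibroblasts, and Col6a3, a chain of the microfibrillar collagen that surrounds fat cells, was higher by 1.38. Basement membrane genes had a median of 0.42 over 14 genes and 0 passed 2-fold. At the higher end were Col4a1 and Col4a2 at 0.89 and 0.94, nidogen Nid1 at 0.92 and laminin Lamb1 at 0.8. Another 5 were below 0, among them agrin (Agrn, -0.62) and Col4a5 (-0.59). The median was -0.003 in the adenine pair and 0.12 in the AICAR pair. Matricellular proteins, elastic fibres and proteoglycans had a median of -0.59, and 8 of 28 were at least 2-fold lower. Thrombospondin Thbs1 had levels of 7.99, 6.39 and 8.69 in adipocytes, against 11.17, 11.14 and 11.23 in fibroblasts. The microfibril gene Mfap5 was at -2.83 and tenascin Tnc at -2.63. Versican (Vcan) and the hyaluronan synthase Has2 were the 2 members at least 2-fold higher, by 1.51 and 1.49.

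Proteases and their inhibitors had members on both sides, with 9 of 23 at least 2-fold lower and 3 at least 2-fold higher (median -0.50). The Timp family was unequal. Timp3 was at -4.12, or -3.05 once values under the filter level were raised to it, since its adipocyte level was dim, while Timp1 (-0.81) and Timp2 (-0.5) lay within 2-fold and Timp4 stayed below the filter. Among the lower proteases were the stromelysin Mmp11 (-2.64), cathepsin K (Ctsk, -2.45), the collagenase Mmp13 (-2.36), the plasminogen activator Plat (-1.7) and the aggrecanase Adamts5 (-1.59). Adamts12, Adam12 and Adamts9 were higher by 2.67, 2.57 and 1.22. The laminin receptor integrin Itga6 was higher by 2.01, and Itgb5, part of a vitronectin receptor, was at -2.05. In the control pair 6 of the 11 preadipocyte and stromal markers were at least 2-fold lower, among them Pdgfrb (-1.17), Thy1 (-1.16) and Islr (-1.45). Pdgfra (0.44) and vimentin (Vim, -0.08) were not. In the AICAR pair 6 of the 11 were above 0.

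Growth factors and their receptors had differences in both directions, with 6 of 24 at least 2-fold higher, 3 at least 2-fold lower and a median of 0.40. Fgf10, a ligand known to support preadipocytes, was higher by 2.24, Fgfr2, a receptor for it, by 2.19, stem cell factor (Kitl) by 1.8 and Egfr by 1.27. Fgf7, another ligand of Fgfr2, was lower at -1.29, as were Vegfd (-1.32) and Igf1 (-1.05), while Vegfa was higher by 0.9. Among Wnt genes the secreted antagonist Sfrp2 stood at 6.11 in adipocytes against 9.05 in fibroblasts, and the receptors Lgr4 and Fzd4 were higher by 1.64 and 1.04. In the TGF-beta family the activin subunit Inhba was at -1.87, its antagonist follistatin (Fst) was higher by 1.18, and the BMP target Id1 by 1.85.

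Interferon-stimulated genes held the largest differences on the lower side. Of 43 antiviral genes 36 were at least 2-fold lower and 1 was above 0, with a median of -2.25. All 8 measured interferon-inducible GTPases were at least 2-fold lower (median -2.71). Ifit1, which binds foreign RNA, had levels of 4.75, 5.21 and 8.05 in adipocytes, against 10.11, 10.02 and 10.51 in fibroblasts. Usp18, which removes the ubiquitin-like ISG15, had levels of 5.73, 6.39 and 7.79 in adipocytes, against 10.04, 9.48 and 9.31 in fibroblasts. The oligoadenylate synthetase-like gene Oasl2 had levels of 6.03, 5.55 and 8.18 in adipocytes, against 10.23, 10.06 and 10.16 in fibroblasts, and Irgm1, a GTPase of defence against intracellular microbes, had levels of 5.08, 6.07 and 7.11 in adipocytes, against 9.09, 9.16 and 9.57 in fibroblasts. In these 4 genes the fibroblast arrays were all the higher, and AICAR adipocytes were the highest of the adipocyte arrays. Oasl1, a paralogue of Oasl2, was the 1 member above 0, at 0.36. The same lists had medians of -2.20 and -2.38 in the adenine pair and of -1.26 and -1.01 in the AICAR pair.

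The signalling chain of interferon passed 2-fold on the lower side at factors of its end, but not at the receptor chains and kinases named here. Interferon binds receptors that act through JAK kinases on transcription factors, and STAT2 and IRF9 are among those that bind the target genes. The receptor chain Ifnar1 (-0.02) and the kinases Jak1 (-0.35), Jak2 (0.04) and Tyk2 (0.12) lay within 2-fold, with Ifnar2 at -0.7. Stat2 was at 7.3 in adipocytes against 9.78 in fibroblasts, Irf9 at 5.71 in adipocytes against 8.19 in fibroblasts and the amplifying factor Irf7 at 5.25 in adipocytes against 8.25 in fibroblasts. The adipocyte array was the lower by 2 log2 units or more for these factors, which are themselves interferon targets. The sensors Tlr3 (-2.04), Sting1 (-1.65) and Tlr2 (-1.65) were also at least 2-fold lower. The gene of interferon beta (Ifnb1) was below the filter on both arrays, at 4.86 in adipocytes against 4.38 in fibroblasts. Over the whole list of 26 the median was -0.17, and Ifngr1, a chain of the interferon gamma receptor, was higher by 1.0.

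The interferon-stimulated response element, searched as GAAANNGAAA on either strand, was held by 3.44% of all promoter windows and by 17 of the 47 windows (36.2%) of the interferon-stimulated genes and GTPases above the filter. Of the 20 genes with the largest negative differences, 12 had 13 windows in the table, and 3 held the motif. These 3 promoters are printed because they carry the element beside some of the largest differences of the comparison. The windows of Ifit3 (chr19:34583279-34583578) and Ifit1 (chr19:34640639-34640938) are on the plus strand, where the motif reads as its reverse complement, and each holds the same pair of matches, TTTCACTTTC and TTTCAGTTTC. The start that the Ifit3 window belongs to lies inside the gene span given above, downstream of its first base. The matches begin 156 and 122 bases before that start of Ifit3, and 104 and 85 bases before that of Ifit1. In Irgm1 (chr11:48871371-48871670, minus strand) the matches GAAATAGAAA and GAAACCGAAA overlap and begin 30 and 24 bases before the start. Capitals mark the matches, which describe letters and do not show binding.
Ifit3: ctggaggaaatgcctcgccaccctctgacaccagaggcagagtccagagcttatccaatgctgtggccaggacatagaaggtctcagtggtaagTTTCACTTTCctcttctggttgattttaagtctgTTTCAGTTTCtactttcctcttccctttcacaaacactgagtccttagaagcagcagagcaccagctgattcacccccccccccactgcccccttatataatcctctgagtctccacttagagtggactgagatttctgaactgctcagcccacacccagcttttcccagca
Ifit1: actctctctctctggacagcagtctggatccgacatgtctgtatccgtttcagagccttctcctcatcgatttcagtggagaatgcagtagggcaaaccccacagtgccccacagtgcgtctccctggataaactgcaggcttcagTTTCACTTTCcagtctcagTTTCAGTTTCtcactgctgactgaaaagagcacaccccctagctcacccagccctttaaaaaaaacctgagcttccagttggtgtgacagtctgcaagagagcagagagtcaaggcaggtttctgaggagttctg
Irgm1: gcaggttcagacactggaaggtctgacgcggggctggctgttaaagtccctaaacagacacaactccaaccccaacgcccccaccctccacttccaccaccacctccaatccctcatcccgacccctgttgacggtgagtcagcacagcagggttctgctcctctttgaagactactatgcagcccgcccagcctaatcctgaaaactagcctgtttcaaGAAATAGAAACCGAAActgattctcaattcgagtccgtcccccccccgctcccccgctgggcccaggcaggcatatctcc

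Antigen presentation differed the same way, with 0 of 15 genes above 0, 6 at least 2-fold lower and a median of -0.75. The class I light chain B2m stood at 11.52, 11.71 and 12.27 in adipocytes, against 12.61, 12.7 and 12.43 in fibroblasts, the immunoproteasome subunit Psmb8 at -2.24, the peptide transporter Tap1 at -1.46 and H2-Q4 at -2.92. Cd74, the invariant chain of class II, had levels of 4.93, 4.62 and 5.91 in adipocytes, against 8.9, 6.99 and 4.46 in fibroblasts. Cd74 was dim in AICAR fibroblasts, so the states overlapped, and the control difference was -3.97. The class II activator Ciita was below the filter, at 4.99 in adipocytes against 4.88 in fibroblasts.

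The chemokine list had more members on the lower side. Of its 23 chemokine, cytokine and adhesion genes 8 were lower by at least 2-fold, 2 were higher by as much and 13 lay within 2-fold (median -0.35). Ccl8, a monocyte chemokine, had levels of 3.83, 3.52 and 4.53 in adipocytes, against 7.7, 8.63 and 8.85 in fibroblasts. Ccl2 (-2.85), Ccl7 (-2.41), Cxcl5 (-2.72) and the interferon-induced Cxcl10 (-2.54) were lower with it, and Nfkbia, the inhibitor of NF-κB, was higher by 1.26. In the complement and coagulation list 5 of 11 were at least 2-fold lower (median -0.64), among them tissue factor (F3, -1.45) and Masp1 (-1.36). The myeloid marker Lyz2 was lower in the same direction (-2.68), and its part in these values was not tested.

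Antioxidant genes were divided. Of 24, 9 were at least 2-fold lower and 2 at least 2-fold higher, with a median of -0.41. Heme oxygenase (Hmox1) was at 8.89 in adipocytes against 11.03 in fibroblasts, the glutathione transferases Gsta4, Gstm2 and Gstm1 at -1.64, -1.46 and -1.33, and glutathione peroxidase Gpx1 at -1.25. Catalase, in the peroxisome, and Aox1 were the higher members, Aox1 by 1.16, and the mitochondrial enzymes Sod2 and Prdx3 were higher by 0.92 and 0.72. In the list of endoplasmic reticulum chaperones and ATF4 targets the median was -0.11. The folate enzyme Aldh1l2 (-2.1), Ddit3 (-1.64), Chac1 (-1.2) and Slc7a11 (-1.18) were at least 2-fold lower, while the related mitochondrial enzyme Mthfd2 was higher by 1.34.

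Growth-related genes lay mostly within 2-fold. For mitosis and the cell cycle the median was 0.31 and 25 of 35 genes were above 0. Cdkn2c, an inhibitor of CDK4 and CDK6 known in differentiating cells, led at 1.35. Top2a was higher by 1.24, and cyclin D1 (Ccnd1) was at -1.13. DNA replication genes had a median of 0.09. Ribosome biogenesis had 27 of 30 genes above 0 with a median of 0.43, led by Myc at 1.36, while the 42 ribosomal protein genes had a median of -0.09.

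**Figure D5:**
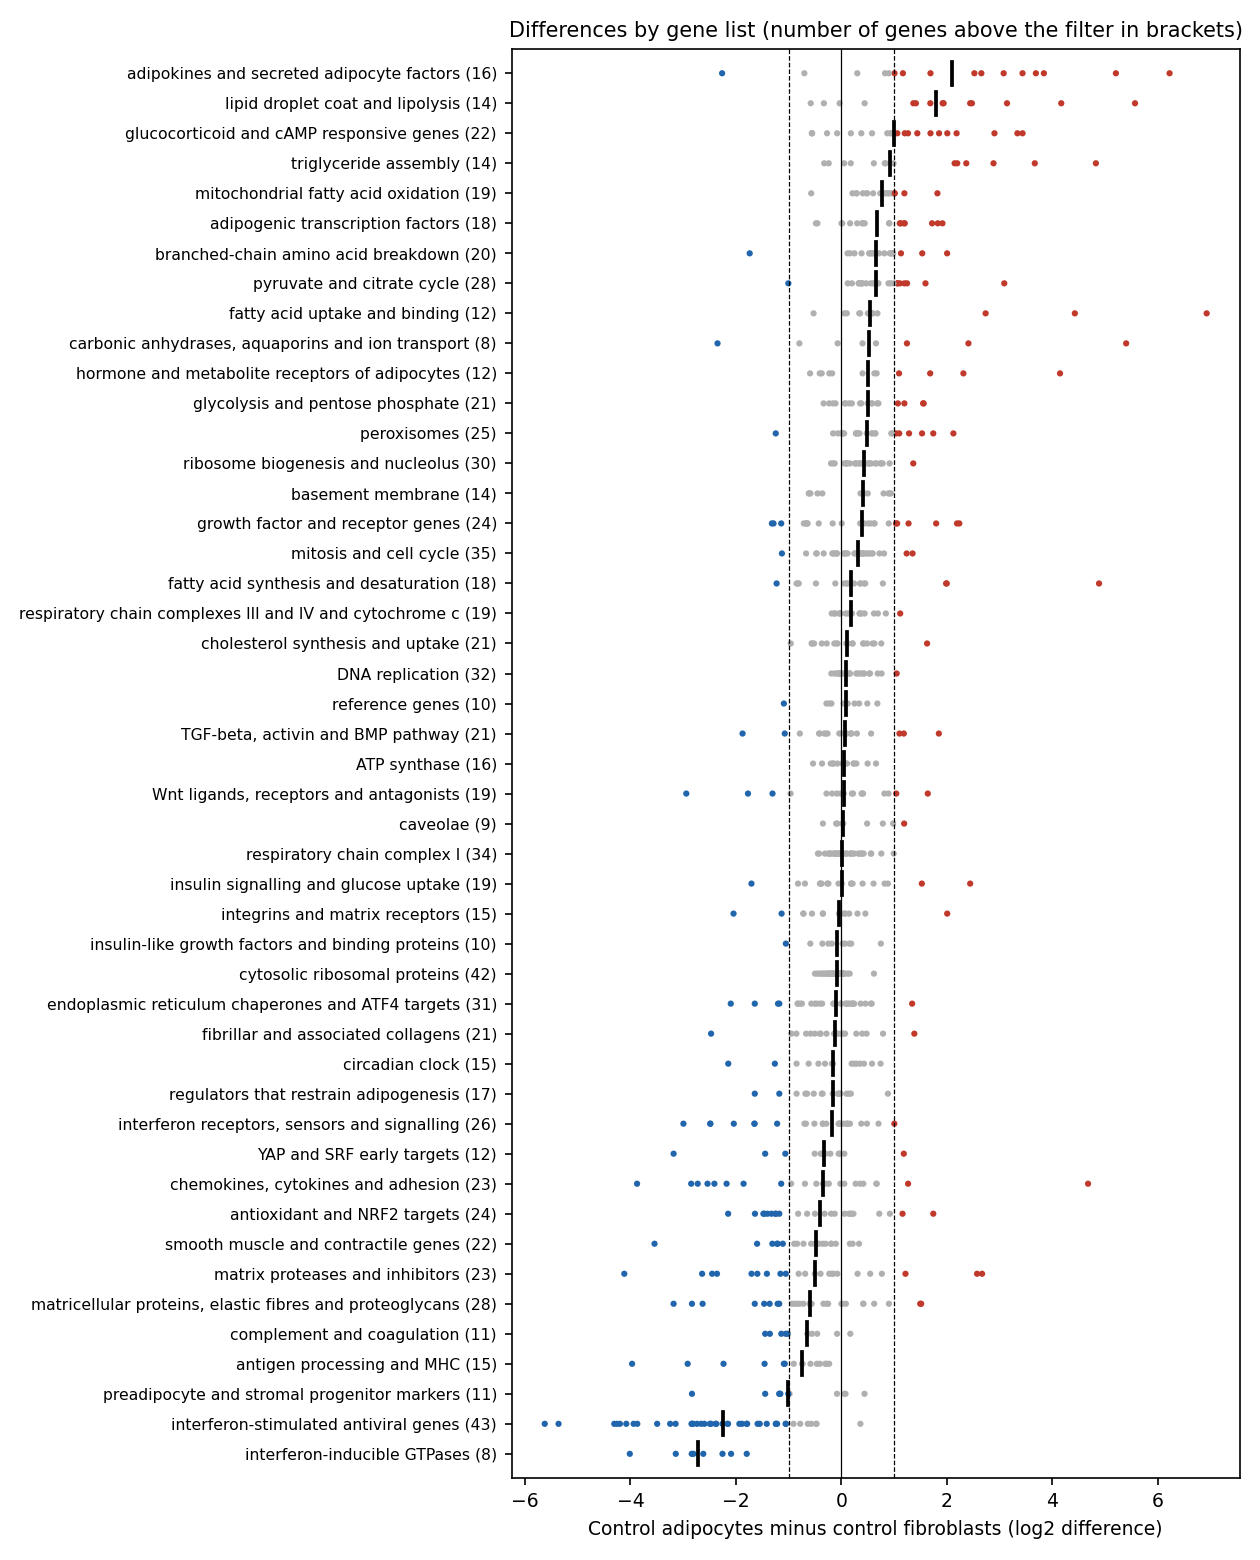
Log2 differences of control adipocytes minus control fibroblasts for genes above the filter in each list with 8 or more of them, with 1 point per gene and the list median marked. Secreted factors and droplet genes have medians of 2.11 and 1.8 here, against 0.91 and 1.31 over all members without the filter, and interferon-stimulated genes and GTPases lie almost wholly beneath 0.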

How the data were processed

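Total RNA of 6 cultures, 1 per condition, was hybridised to Affymetrix mouse whole-transcript arrays, per the labels. The deposited values are log2 signals of 35556 probe sets, made by the authors with Transcriptome Analysis Console 1.0.0.234 and mouse build mm10 according to the submitters' processing notes. The sources used here do not give the background correction or normalization, so the values were used as deposited.

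The platform annotation, which can be old, named a single gene for 21789 probe sets, more than 1 for 1621 and no gene for 12146. Of 19938 genes, 19856 had an Entrez ID in the RefSeq table for GRCm38.p6, the source of positions and promoters. A gene was represented by its brightest probe set over the 6 arrays, and a mean at or above the median (5.87) was required.

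Differences were subtractions of single arrays with no test and no p-value, and at least 2-fold was counted. The number of arrays limits every value. The named genes were fixed markers, the 20 largest differences each way without predicted genes, small RNAs and chemosensory receptors, the 3 highest and 3 lowest members of 53 gene lists, members best known for their role, paralogues set against each other and the genes at a threshold. The comparison, its genes and its lists were chosen with earlier results of these data known, so the lists support nothing independently. Python 3.11.15, numpy 2.4.6, pandas 2.3.3 and matplotlib 3.10.9 were used. Alternatives were quantile normalization, centring, other filters and thresholds, averaged probe sets and raising dim values. Probe sets with several symbols or none were left out of the counts.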

Additional observations from a re-analysis of the deposited data

Results flagged for a closer look

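In a few genes the adipocyte-minus-fibroblast difference passed 2-fold in opposite directions in 2 pairs of arrays, and none of these contrasts between pairs was tested. Agtr2, the angiotensin receptor, was -1.21 in the adenine pair and 2.31 in the control pair. The others set the AICAR pair against the control pair. Cd74 was 1.45 in the AICAR pair and -3.97 in the control pair. Aldh1l2, a mitochondrial folate enzyme, was 2.07 with AICAR and -2.1 in the control pair, and Chac1, which degrades glutathione, was 1.56 and -1.2. The preadipocyte factor Dlk1 was 1.06 with AICAR and -1.18 in the control pair. Extracellular superoxide dismutase (Sod3) was 1.88 with AICAR and -1.48 in the control pair. Pfkfb3, which makes an activator of glycolysis, was -1.32 with AICAR and 1.19 in the control pair. The fibroblast arrays were far apart in some of them, with Cd74 at 4.46 in AICAR fibroblasts and 8.9 in control fibroblasts, and Pfkfb3 at 7.85 in AICAR fibroblasts and 5.58 in control fibroblasts. Over all genes above the filter, 4 of the 287 higher and 12 of the 426 lower genes passed 2-fold the other way with AICAR, and 3 of the higher and 0 of the lower with adenine.

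Probe sets without a gene symbol were outside the comparison and also differed. Of 3702 such probe sets with a mean above the filter level, 67 were at least 2-fold higher in control adipocytes and 122 at least 2-fold lower, 189 in all (5.11%), against 7.15% of the named genes.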

How the results depend on the processing

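The counts of 287 higher and 426 lower genes became 174 and 203 when the filter was set at the 75th percentile, which leaves fewer genes, 778 and 1017 at 1.5-fold, and 74 and 103 at 4-fold. They stayed within 1.5 times under quantile normalization (303 and 414), centred medians (247 and 476), no filter (334 and 513), averaged probe sets (287 and 423) and dim values raised to the filter level (275 and 398). With the filter taken from the 2 control arrays, an alternative chosen after seeing the data, they were 286 and 426. Quantile normalization, centring and averaging of probe sets kept every list median within 0.20, the SD between probe sets of a gene, of its reported value. They moved the median of all genes to 0.04 and -0.05 under the first and second. Without a filter 2 list medians further than 0.20 from 0 changed sign. They were those of leukocyte markers, to 0.027 (reported -0.72, 3 genes), and of skeletal muscle markers, to 0.0605 (reported -0.40, 3 genes). Some medians within 0.20 of 0 also changed sign, such as that of integrins without a filter, from -0.0454 to 0.0013. Also without a filter, medians were 0.44 for adipogenic factors, 1.31 for droplet genes, 0.91 for secreted factors, 0.25 for caveolae, 0.12 for brown and beige markers, -0.23 for matrix proteases, -0.47 for antigen presentation, -0.20 for complement, -0.11 for preadipocyte markers, 0.067 for growth factors, 0.14 for hormone receptors and 0.25 for carbonic anhydrases. With the 75th percentile filter they were 2.59 for secreted factors, 0.26 for caveolae, -0.21 for matrix proteases, -0.35 for integrins, -1.91 for interferon-stimulated genes, -0.92 for chemokines, -0.85 for complement, 0.32 for Wnt genes, 0.31 for DNA replication, -0.40 for the clock, 1.24 for carbonic anhydrases and -0.36 for bone and cartilage. These shifts come with the genes that each filter adds or removes. With dim values raised to the filter level the medians were -1.90 for interferon-stimulated genes, -2.35 for GTPases and -0.44 for leukocyte markers, and 31 of the 40 genes with the largest differences had ones smaller by 0.20 or more, with 0 changes of sign, such as 5.04 for Cd36 and -4.57 for Ifit3. The other 274 list medians recomputed were within 0.20 of those reported. No paired analysis was possible for the control difference because each condition has 1 array and the replicate number only names it, and no replicate could be left out. A fit of state over all 6 arrays with compound as a block, which asks about the mean over compounds, was not run. The lack of detection calls limits what can be said of levels near the floor.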

Other observations

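Caveolae, the membrane pits that are abundant in fat cells, had unequal members in the control pair. Cav1 was higher by 0.98, Cav2 by 1.19 and the neck protein gene Ehd2 by 0.79, while Cavin3 was at -0.35 and Cavin2 at 0.04. Clock genes were also unequal. Dbp, an output gene of the clock, was at -1.26 and the repressor Bhlhe41 at -2.15, while Nfil3, which opposes Dbp at shared sites, was higher by 0.74. The time of day of harvest was not given in the sources used here.

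Markers of brown and beige fat were mostly dim, with 4 of 16 above the filter. Ucp1, the uncoupling protein of brown fat, was at 4.44 in adipocytes against 4.37 in fibroblasts, and Cidea was at 4.12 in adipocytes against 3.99 in fibroblasts. Ppargc1a, a coactivator of mitochondrial genes, was at 7.32 in adipocytes against 7.96 in fibroblasts, and its paralogue Ppargc1b ran the other way at 6.87 in adipocytes against 6.12 in fibroblasts. Several genes typical of mature fat also stayed below the filter, with the glycerol channel Aqp7 at 5.44 in adipocytes against 4.19 in fibroblasts, Pck1 at 5.35 in adipocytes against 5.12 in fibroblasts and Plin5 at 5.83 in adipocytes against 5.36 in fibroblasts.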
